A study of Mus musculus with 16 samples.

Results

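Ribosomes are built in the nucleolus, where RNA polymerase I transcribes the precursor of the ribosomal RNAs. Small nucleolar ribonucleoproteins (snoRNPs) modify and help to fold this precursor, and large assemblies of U3 proteins and processing factors cut it and turn it into the small and the large ribosomal subunit. The pathway takes much of the energy of a growing cell, is switched on by the transcription factor Myc and is most active in proliferating cells, among them the thymocyte progenitors that expand at the DN3 stage (CD4-CD8-CD25+CD44-). The genes examined here were those whose symbol is Utp, Nop, Nol or Rrp followed by a number, all genes beginning with Polr1, and Fbl, Ncl, Npm1, Dkc1, Nhp2, Gar1, Bop1, Pes1, Wdr12, Imp3 and Imp4. This rule uses names alone and gave 50 of the 22114 genes in both count tables.

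By role, 5 of the 50 genes encode subunits of RNA polymerase I, 3 the box C/D snoRNP core, 4 the box H/ACA snoRNP core, 20 factors of the small subunit, 11 factors of the large subunit, and 4 other nucleolar proteins (Ncl, Npm1, Rrp8 and Nol7). A further 3 (Nol3, Nol4 and Nol4l) match by name only and are not known as ribosome assembly factors. Nol3 encodes an inhibitor of apoptosis. Nol4 had 0 counts in all 15 libraries, which allows up to 3 counts in each, and the other 49 genes passed the expression filter of both experiments and were tested in every comparison.

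DN3 thymocytes were compared in a pair of experiments, both in C57BL/6 mice and both by poly-A RNA-seq of sorted cells. In the first, H2B-GFP;Lmo2Tg mice, which carry an Lmo2 transgene under the CD2 promoter, received doxycycline for 6 weeks so that dividing cells took up a GFP-tagged histone; after a chase of 2 weeks, cells that had kept the label (GFPhi, 3 libraries) were separated from cells that had diluted it (GFPlo, 3 libraries). All 6 libraries of this experiment carry the Lmo2 transgene. In the second, total DN3 cells came from 6-week-old wild-type (3 libraries), p21-/- (2 libraries), Lmo2Tg (2 libraries) and Lmo2Tg;p21-/- (2 libraries) mice, where p21 is the cell-cycle inhibitor encoded by Cdkn1a. Total counts ran from 26861394 to 31106213 in the GFP libraries and from 13864936 to 16837667 in the genotype libraries, and values below are counts scaled to library size by TMM (CPM) unless stated otherwise. Lmo2 was at 0.0636 to 0.306 CPM in the 5 libraries without the transgene and at 41.4 to 107 CPM in the 4 genotype libraries with it, and the 14 DN3 markers examined summed to between 11126 and 15665 CPM in every library. Cdkn1a was reduced rather than absent in the knockout libraries, at 14.3 and 17.7 CPM in p21-/- against 36.5 to 48.99 CPM in wild-type libraries and at 4.35 and 3.502 CPM in Lmo2Tg;p21-/- against 32.8 and 26.3 CPM in Lmo2Tg libraries. GFPhi replicate 3 stood apart from the other GFP libraries, with Lmo2 at 285 CPM against 29.5 to 53.8 CPM, so the members' calls and medians in the GFP comparison are also given without it. The study's methods describe RNA for expression profiling as pooled from several mice. The levels are of bulk RNA, in which fewer cells with a transcript and less of it in each cell cannot be told apart.

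The sequences of Fbl and Npm1, the methyltransferase of the box C/D snoRNP and the histone chaperone nucleophosmin, bear on how far any of their values can be read. Of the 50-base windows along the longest coding transcript, 73.0% in Fbl and 40.9% in Npm1 also occur in transcripts of other, non-overlapping genes (GENCODE M21). The stretches below, each within the coding sequence and printed in lower case throughout since every base is shared, were found unchanged at 3 other loci for Fbl (chr7:28175016-28175065, GRCm38, plus strand) and at 5 for Npm1 (chr11:33161578-33161627, GRCm38, minus strand).
Fbl: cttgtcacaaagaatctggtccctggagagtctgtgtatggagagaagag
Npm1: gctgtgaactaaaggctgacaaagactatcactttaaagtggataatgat

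The loci that shared at least 5% of the windows of Fbl were the gene Tulp4 (70.5%) and the pseudogenes Gm5812 and Gm6211, and for Npm1 they were 6 processed pseudogenes. The median level of Fbl was 11.6 CPM in the GFP table and 141 CPM in the genotype table, a ratio of 12.1. For Npm1 the medians were 355 and 1805 CPM, a ratio of 5.09. Across the 49 detected genes the median ratio was 1.04 and the quartiles 0.957 and 1.16, so both genes lie far outside the quartiles. Nop56 and Pes1 shared 37.6% and 19.7% of their windows with pseudogenes and had ratios of 1.32 and 1.32. How reads that match several loci were counted in each table is not given in the sources used here, and the part of shared sequence in these ratios was not tested. Levels were compared within a table only.

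**Figure D1:**
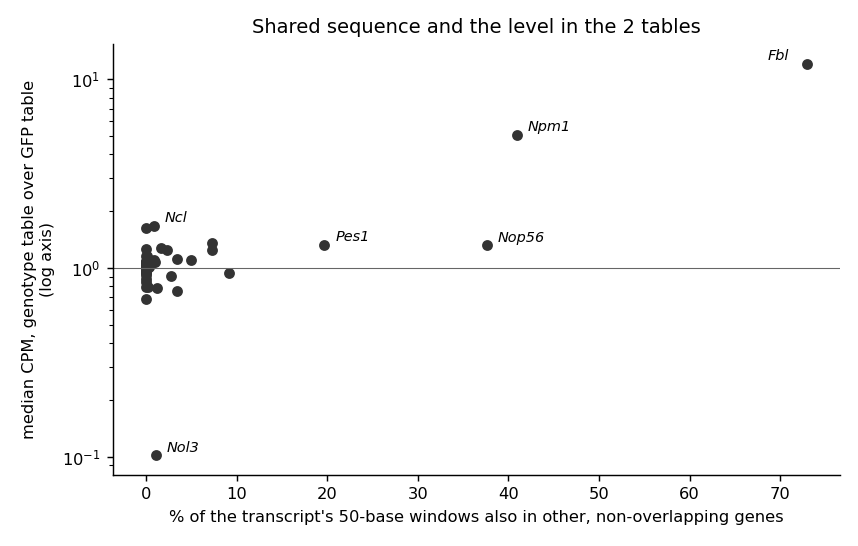
Each point is 1 of the 49 detected genes: the x axis gives the percentage of the 50-base windows of its transcript found in other, non-overlapping genes, and the y axis (log scale) the ratio of its median CPM in the genotype table to that in the GFP table. Fbl (73.0%, ratio 12.1) and Npm1 (40.9%, ratio 5.09) stand above the other genes, and Nol3 (1.06%, ratio 0.102) below them.

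Per kilobase of exon, the most abundant of the 50 genes in the genotype libraries were Npm1 (677 CPM per kb) and Ncl (238 CPM per kb), which encodes nucleolin, followed by Rrp1 (113 CPM per kb), Nhp2 (77.0 CPM per kb), Nop10 (74.0 CPM per kb) and Imp3 (73.9 CPM per kb). In the GFP libraries Ncl (142 CPM per kb), Npm1 (133 CPM per kb) and Rrp1 (109 CPM per kb) led. The RNA polymerase I subunits ran lower in the genotype libraries, from 8.81 CPM per kb (Polr1e) to 26.8 CPM per kb (Polr1d). Utp14b, at 3.84 CPM per kb, was the lowest apart from the name matches.

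A shared feature outside the naming rule is that 4 of the 50 genes (8%) hold snoRNA genes within their bodies on the same strand: Nop56 holds 5, Nop58 4, Ncl 3 and Dkc1 1. Among 12136 genes tested in either experiment the share was 1.85%. Poly-A libraries measure the host transcript, not the snoRNA.

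Promoters are shown for the E-box CACGTG, the palindromic site that Myc and related factors bind. Of the 50 genes, 40 were matched in the RefSeq promoter table (GRCm38.p6; 250 bases before to 50 after the start), and 8 of them (20%) held the letters CACGTG, which read the same on both strands: Imp4, Nol11, Nop2, Pes1, Rrp7a, Utp14b, Utp18 and Utp20. The share among all 27025 genes of the table was 8.09%. The windows of Utp14b (chr1:78658190-78658489, plus strand), Pes1 (chr11:3963725-3964024, plus strand), Nop2 (chr6:125131633-125131932, plus strand) and Nop58 (chr1:59684756-59685055, plus strand) are printed 5′ to 3′ with the E-box in capitals. They were chosen as the called genes with the largest falls in Lmo2Tg;p21-/- against Lmo2Tg cells (Utp14b with the letters and Nop58 without) and as factors of the large subunit with the letters (Pes1 and Nop2).
Utp14b: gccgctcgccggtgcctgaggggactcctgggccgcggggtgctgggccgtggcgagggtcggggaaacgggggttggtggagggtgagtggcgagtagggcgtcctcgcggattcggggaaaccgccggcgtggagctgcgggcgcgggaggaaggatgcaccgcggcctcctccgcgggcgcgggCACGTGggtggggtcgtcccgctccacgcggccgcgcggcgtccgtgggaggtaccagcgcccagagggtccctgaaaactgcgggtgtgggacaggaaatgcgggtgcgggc
Pes1: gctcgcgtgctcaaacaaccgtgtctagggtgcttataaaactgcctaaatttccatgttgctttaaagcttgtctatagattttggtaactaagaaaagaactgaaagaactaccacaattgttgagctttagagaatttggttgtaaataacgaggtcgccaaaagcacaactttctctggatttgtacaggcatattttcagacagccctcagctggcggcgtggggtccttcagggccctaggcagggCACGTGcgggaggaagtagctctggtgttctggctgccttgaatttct
Nop2: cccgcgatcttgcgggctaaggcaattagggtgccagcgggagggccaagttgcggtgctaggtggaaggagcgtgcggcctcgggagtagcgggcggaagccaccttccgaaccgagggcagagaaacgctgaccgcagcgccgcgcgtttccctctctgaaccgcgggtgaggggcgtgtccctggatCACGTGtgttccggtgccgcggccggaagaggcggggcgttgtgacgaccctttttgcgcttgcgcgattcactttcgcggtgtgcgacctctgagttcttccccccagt
Nop58: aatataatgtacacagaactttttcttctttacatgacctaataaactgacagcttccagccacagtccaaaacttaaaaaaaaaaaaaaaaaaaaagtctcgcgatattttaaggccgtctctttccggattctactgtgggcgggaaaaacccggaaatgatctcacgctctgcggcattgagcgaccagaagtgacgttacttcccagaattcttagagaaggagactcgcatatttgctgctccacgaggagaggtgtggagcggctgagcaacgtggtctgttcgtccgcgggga

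The p21 deletion was first compared in DN3 cells without the Lmo2 transgene. None of the 49 genes changed at an adjusted p under 0.05 in edgeR's quasi-likelihood test (0.11% of all 11840 genes tested did), and DESeq2 and limma-voom also called 0. At an unadjusted p under 0.05 there was 1, Utp14b, against 3.3% of all genes. The log2 differences ran from -0.22 to 0.51 with a median of -0.046, beside -0.00057 over all genes, and 35 of 49 were below 0 where 50.2% of all genes were. Nucleolin was at 2436, 2478 and 2168 CPM in wild-type and 2426 and 2681 CPM in p21-/- cells, overlapping ranges with a log2 difference of 0.11 ± 0.11 (SE).

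**Figure D2:**
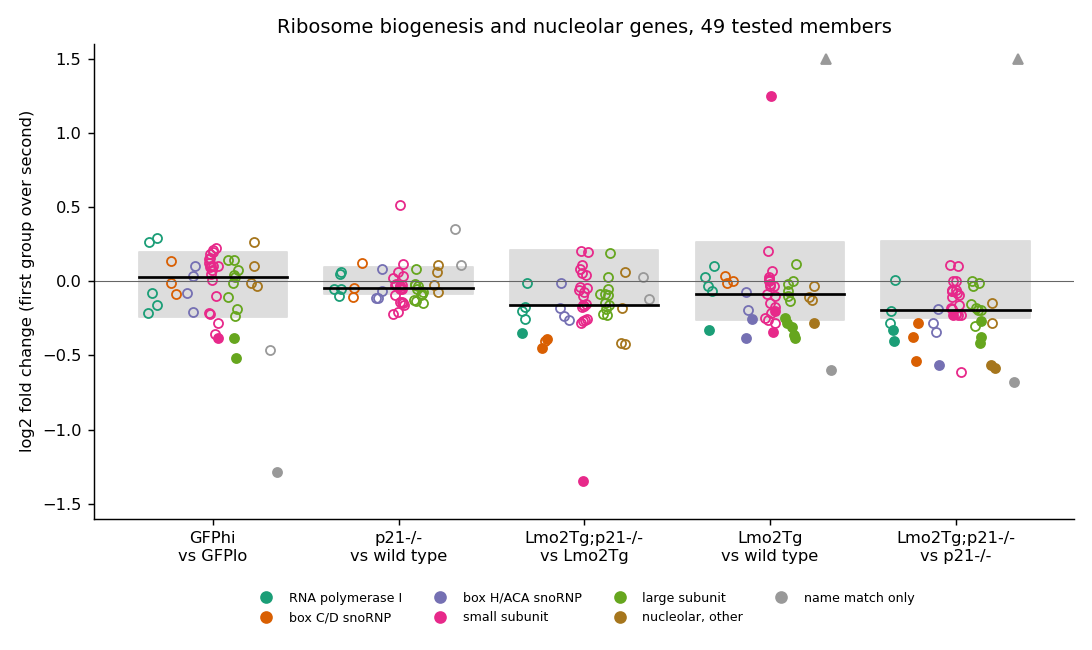
Log2 fold changes (y axis) of the 49 tested genes in the 5 comparisons (x axis), coloured by role; filled points passed an adjusted p under 0.05, black lines are medians of the 49 genes and grey boxes span the quartiles of all genes tested. The triangles at the top mark Nol3, whose fitted values of 2.89 and 2.42 lie beyond the axis. The medians run from 0.026 in GFPhi against GFPlo to -0.20 in Lmo2Tg;p21-/- against p21-/-.

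In Lmo2Tg;p21-/- against Lmo2Tg cells 4 genes fell and 0 rose among the 49 (3.59% of all genes fell and 3.35% rose): Nop58 and Nop56, the paired core proteins of box C/D snoRNPs, Polr1d, a subunit that RNA polymerases I and III share, and Utp14b, a retrocopy of the small subunit factor Utp14a. Nop58 was at 350 and 392 CPM in Lmo2Tg and 251 and 291 CPM in Lmo2Tg;p21-/- libraries (log2 -0.45 ± 0.11, SE; adjusted p = 0.0325, edgeR). Nop56 was at 303 and 310 CPM against 217 and 250 CPM (log2 -0.39 ± 0.088, adjusted p = 0.0264, edgeR). The groups did not overlap for either gene, where 25.7% of all genes were lower without overlap. The Lmo2Tg levels lay within or above the range of wild-type cells, from 339 to 375 CPM for Nop58 and from 293 to 320 CPM for Nop56.

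Polr1d was at 86.6 and 92.0 CPM in Lmo2Tg and 69.7 and 70.3 CPM in Lmo2Tg;p21-/- libraries (log2 -0.35 ± 0.091, adjusted p = 0.0436, edgeR). All 5 RNA polymerase I genes, all 3 box C/D genes and all 4 box H/ACA genes had estimates below 0, with medians of -0.20, -0.41 and -0.21. The small subunit group (median -0.087, 14 of 20 below 0) and the large subunit group (median -0.093, 9 of 11 below 0) stayed closer to 0. Over the 49 genes the median was -0.16, beside 0.018 over all genes, and 39 of 49 estimates were below 0 where 47.3% of all genes were.

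Most of these shifts did not pass the adjusted threshold. At an unadjusted p under 0.05 there were 15 lower genes (12.1% of all genes) and 1 higher gene, Nol8 (13.5% of all genes). The most abundant members just missed the adjusted threshold: Ncl stood at 2160 and 2469 CPM in Lmo2Tg against 1561 and 1884 CPM in Lmo2Tg;p21-/- libraries (log2 -0.43 ± 0.12, adjusted p = 0.0564, edgeR), and Npm1 at 1533 and 1899 against 1176 and 1395 CPM (log2 -0.42 ± 0.13, adjusted p = 0.0767, edgeR). For Fbl the values were 141 and 161 against 109 and 119 CPM (log2 -0.41 ± 0.11, adjusted p = 0.0588, edgeR). None of these 3 genes overlapped between the groups, where 25.7% of all genes were lower without overlap. Among the other named genes, the log2 differences were -0.28 for Imp3, -0.26 for Nhp2, -0.22 for Bop1, -0.19 for Pes1, -0.18 for Gar1, -0.23 for Dkc1, -0.20 for Polr1a, -0.17 for Polr1b, -0.08 for Wdr12 and -0.06 for Imp4, and none passed the test.

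The count of calls rested on single libraries. It was 0 without the Lmo2Tg column L3 and 0 without Lmo2Tg;p21-/- replicate 1, 2 without WT replicate 1 and 2 without Lmo2Tg;p21-/- replicate 2, 1 without WT replicate 2, and 1 when only the libraries of the groups compared were fitted. DESeq2 and the fit with no filter on low counts called 7 genes each. The median of the 49 genes moved by less than the spread between replicates in all of these.

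**Figure D3:**
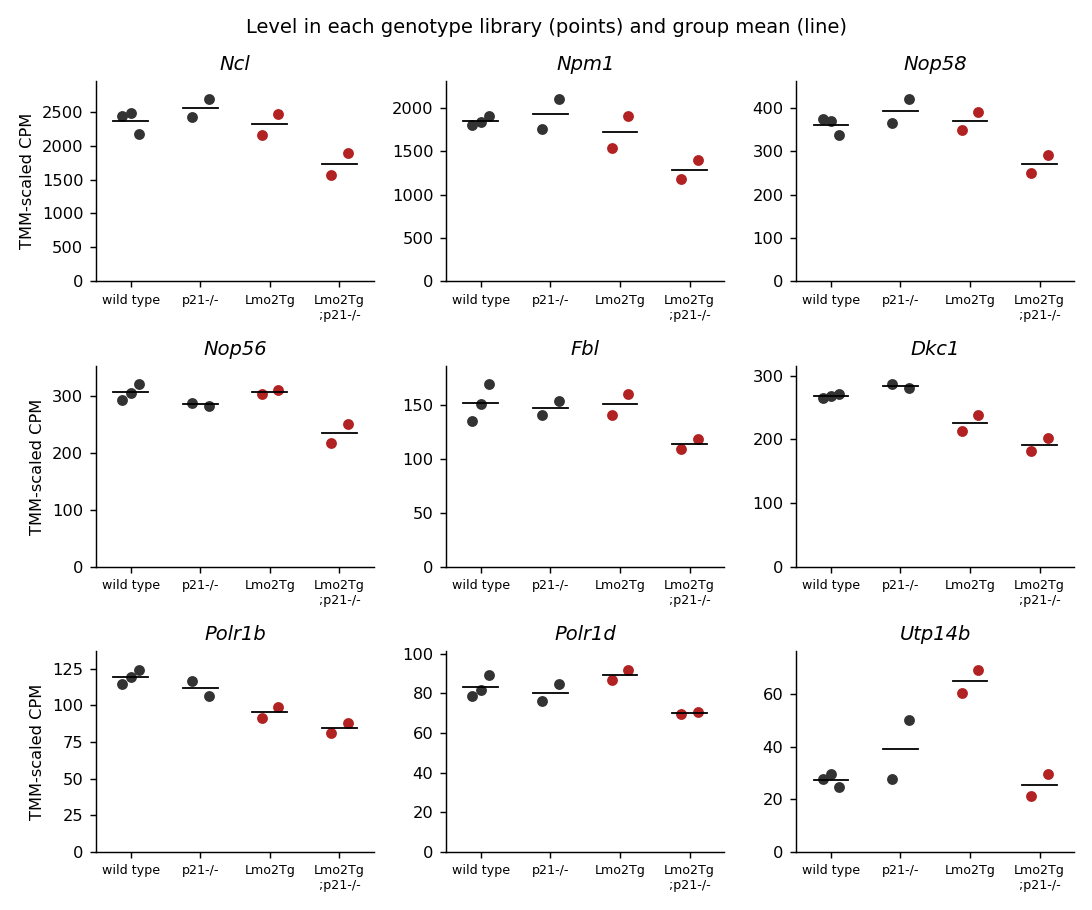
TMM-scaled CPM (y axis, from 0) of 9 genes in each of the 9 genotype libraries (points; black without and red with the Lmo2 transgene), with the group mean as a line. In Ncl, Npm1, Nop58, Nop56 and Fbl the Lmo2Tg;p21-/- libraries lie below those of the other 3 genotypes, in Dkc1 and Polr1b both transgenic genotypes lie below the others, and Utp14b is high in Lmo2Tg cells and in 1 of the p21-/- libraries.

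Utp14b had the largest fitted changes of the assembly factors in both comparisons of Lmo2Tg cells. It was at 27.8, 29.5 and 24.7 CPM in wild-type, 27.7 and 50.3 CPM in p21-/-, 60.4 and 69.3 CPM in Lmo2Tg, and 21.1 and 29.6 CPM in Lmo2Tg;p21-/- libraries. Both Lmo2Tg libraries were thus above all others, and the p21-/- libraries differed from each other more than any other pair of replicates. It rose in Lmo2Tg against wild-type cells by 1.25 ± 0.21 on the log2 scale (adjusted p = 0.00108, edgeR), with adjusted p from 1.11e-08 to 0.00925 over 15 alternatives, and fell in Lmo2Tg;p21-/- against Lmo2Tg cells by 1.35 ± 0.24 (adjusted p = 0.0107, edgeR). Without the Lmo2Tg column L3, or without Lmo2Tg;p21-/- replicate 1, the second call was lost. Its parent Utp14a, on chromosome X, was at 75.9 and 82.0 CPM in Lmo2Tg and 64.7 and 67.9 CPM in Lmo2Tg;p21-/- libraries (log2 -0.25 ± 0.083, adjusted p = 0.0935, edgeR).

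The exons of Utp14b share 244 bases (3.18%) with Acsl3, an acyl-CoA synthetase gene transcribed in the same direction, so reads there cannot be told apart. Acsl3 went the other way in Lmo2Tg against wild-type cells. It was at 31.5 and 33.6 CPM against 45.7 to 51.5 CPM, and fell by 0.57 ± 0.096 on the log2 scale (adjusted p = 0.00110, edgeR). Between Lmo2Tg;p21-/- and Lmo2Tg it differed by 0.11 ± 0.11. In Lmo2Tg;p21-/- against p21-/- cells both estimates were below 0, for Acsl3 (log2 -0.37 ± 0.10, adjusted p = 0.0193, edgeR) and for Utp14b (log2 -0.61 ± 0.24, adjusted p = 0.0756, edgeR). The part of shared reads was not tested. The window printed for Utp14b above starts downstream of the RefSeq window of Acsl3.

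Whether p21 loss acted differently with and without the transgene was tested by the interaction of the genotypes. It was called for 1 of the 49 genes (1.38% of all genes), Utp14b, at -1.86 ± 0.32 on the log2 scale (adjusted p = 0.0319, edgeR); the call was lost without the Lmo2Tg column L3, without p21-/- replicate 2, without either Lmo2Tg;p21-/- replicate and without WT replicates 1 or 3. Adjusted p ran from 3.67e-07 to 0.143 over its 14 alternatives. At an unadjusted p under 0.05 there were 11 lower genes (8.5% of all genes) and 1 higher gene, Utp11l (9.65% of all genes). Nop58 had an interaction of -0.57 ± 0.14 (adjusted p = 0.0865), Ncl of -0.54 ± 0.16 (adjusted p = 0.118), Npm1 of -0.48 ± 0.17 (adjusted p = 0.183) and Fbl of -0.36 ± 0.15 (adjusted p = 0.246), all in edgeR. The median over the 49 genes was -0.082, beside 0.013 over all genes, and 34 of 49 estimates were below 0 where 48.3% of all genes were.

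In Lmo2Tg against wild-type cells 12 of the 49 genes fell and 2 rose, where 16.9% of all genes fell and 19.7% rose. In the large subunit group 5 of 11 genes fell, among them Rrp1b (131 to 138 CPM in wild-type, 106 and 104 CPM in Lmo2Tg; log2 -0.36 ± 0.070, adjusted p = 0.00254, edgeR), Nop16 (log2 -0.38) and Wdr12, part of the PeBoW complex with Pes1 and Bop1 (121 to 123 CPM against 96.9 and 99.2 CPM; log2 -0.31 ± 0.074, adjusted p = 0.00791, edgeR). Its partners did not pass: Pes1 was at 142, 149 and 163 CPM in wild-type and 132 and 152 CPM in Lmo2Tg libraries, and Bop1 at 121, 135 and 155 CPM and 131 and 131 CPM, overlapping in both.

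Of the 4 box H/ACA genes, which guide pseudouridylation and also stabilise telomerase RNA, Dkc1 (dyskerin) fell from between 265 and 271 CPM in wild-type to 212 and 238 CPM in Lmo2Tg libraries (log2 -0.25 ± 0.080, adjusted p = 0.0306, edgeR) and Nop10 from between 82.1 and 107 CPM to 68.9 and 74.3 CPM (log2 -0.38 ± 0.11, adjusted p = 0.0194, edgeR). Nhp2 (log2 -0.19 ± 0.12) and Gar1 (log2 -0.07 ± 0.088) did not pass. Polr1b, the second largest subunit of RNA polymerase I, was at 114 to 125 CPM in wild-type and 91.7 and 98.9 CPM in Lmo2Tg libraries (log2 -0.33 ± 0.080, adjusted p = 0.00875, edgeR). The 3 box C/D genes gave log2 differences of -0.01 (Fbl), 0.00 (Nop56) and 0.04 (Nop58), with SEs from 0.080 to 0.10, and none passed.

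The remaining called genes were Utp11l (log2 -0.34), Nol9, Rrp8, Nop2 and Utp6 (log2 -0.20 to -0.28; the call of Utp6 was lost in 13 and that of Nop2 in 10 of 15 alternatives), and the name matches Nol4l and Nol3. Nol4l fell from between 8.15 and 8.65 CPM to 5.92 and 5.20 CPM. Nol3 had 0, 3 and 5 counts in the wild-type and 13 and 23 counts in the Lmo2Tg libraries, and its fitted log2 value of 2.89 depends on the prior count. Nol3 shares 48.2% of its exon bases with 4931428F04Rik on the other strand, which was at 11.2 and 10.4 CPM in Lmo2Tg and 9.25 to 13.6 CPM in wild-type libraries, and the titles of the deposited tables hint at counting without strand in the genotype table and by strand in the GFP table, which no other source used here states. Past the stricter rule of a change over 2-fold there were only Utp14b and Nol3, against 12% of all genes. Without the Lmo2Tg column L2 the number of calls was 4 in place of 14, and without WT replicate 2 it was 9.

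In Lmo2Tg;p21-/- against p21-/- cells 13 genes fell and 1, Nol3, rose (14.4% and 16.3% of all genes), and 42 of 49 estimates were below 0 where 50.4% of all genes were, with a median of -0.20 beside -0.0043 over all genes. Against wild type the corresponding values for Lmo2Tg cells were 35 of 49 (51.4% of all genes) and a median of -0.083 beside -0.013. These 2 comparisons share no library, and the test of their difference is the interaction above. Lmo2Tg;p21-/- against p21-/-, Lmo2Tg;p21-/- against Lmo2Tg and the interaction all rest on the same 2 Lmo2Tg;p21-/- libraries. Falls seen in more than 1 of them are therefore not independent.

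All 3 box C/D genes fell, Nop58 from 366 and 421 CPM to 251 and 291 CPM (log2 -0.54 ± 0.11, adjusted p = 0.00357, edgeR), Fbl from 141 and 154 CPM to 109 and 119 CPM (log2 -0.37 ± 0.11, adjusted p = 0.0299, edgeR) and Nop56 from 287 and 282 CPM to 217 and 250 CPM (log2 -0.28 ± 0.088, adjusted p = 0.0310, edgeR). Dkc1 went from 286 and 281 CPM to 181 and 202 CPM (log2 -0.56 ± 0.087, adjusted p = 0.000730, edgeR) and kept its call in all 15 alternatives. Npm1 went from 1758 and 2097 CPM to 1176 and 1395 CPM (log2 -0.58 ± 0.13, adjusted p = 0.00573, edgeR). Ncl went from 2426 and 2681 CPM to 1561 and 1884 CPM (log2 -0.57 ± 0.12, adjusted p = 0.00453, edgeR). None of these 6 genes overlapped between the groups, where 35.4% of all genes were lower without overlap.

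The polymerase subunits Polr1a (162 and 156 CPM to 129 and 125 CPM; log2 -0.33 ± 0.075, adjusted p = 0.00734, edgeR) and Polr1b (log2 -0.40 ± 0.087, adjusted p = 0.00550, edgeR) fell, as did Pes1 (log2 -0.27), Rrp1b (log2 -0.41), Wdr12 (log2 -0.37), Utp3 (log2 -0.23) and Nol4l (log2 -0.68). Utp3 was the only one of 20 small subunit genes called, and its call was lost in 10 of 15 alternatives. Bop1 (log2 -0.15 ± 0.11), Nhp2 (log2 -0.34 ± 0.13), Gar1 (log2 -0.19 ± 0.096), Imp3 (log2 -0.09 ± 0.12) and Imp4 (log2 0.00 ± 0.085) did not pass. Nol3 alone passed the 2-fold rule, against 10.4% of all genes; in Lmo2Tg;p21-/- against Lmo2Tg it was Utp14b alone, against 1.88%. The count of calls was 5 without Lmo2Tg;p21-/- replicate 1, 7 without p21-/- replicate 2 and 9 without p21-/- replicate 1.

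The 50 genes together took 0.924% to 0.946% of all counts in wild-type, 0.927% and 0.971% in p21-/-, 0.807% and 0.894% in Lmo2Tg, and 0.693% and 0.774% in Lmo2Tg;p21-/- libraries. Transcripts of 16 cell-cycle genes summed to 5118 to 5418 CPM in wild-type, 5457 and 6142 CPM in p21-/-, 4388 and 5231 CPM in Lmo2Tg and 3548 and 4674 CPM in Lmo2Tg;p21-/- libraries, and within each of the last 3 genotypes the library with the lower sum had the lower share, while in wild-type cells the order was the reverse. In the GFP experiment the library with the lowest sum, GFPhi replicate 3 (3061 CPM), did not have the lowest share (0.616%). GFPhi replicates 1 and 2 had sums of 4407 and 4942 CPM and shares of 0.611% and 0.641%. GFPlo replicates 1, 2 and 3 had sums of 4229, 5253 and 5881 CPM and shares of 0.600%, 0.629% and 0.672%. In Lmo2Tg;p21-/- against p21-/- cells 12 of these 16 genes fell, where 14.4% of all genes did. In Lmo2Tg against wild-type cells 2 of them fell, where 16.9% of all genes did. In Lmo2Tg;p21-/- against Lmo2Tg cells 0 were called. The same held for p21-/- against wild type, GFPhi against GFPlo and the interaction. The part of cycling cells in the results was not tested. Markers of other cells that the DN3 gate might hold also varied with the transgene. In Lmo2Tg against wild-type cells 4 of 6 tested DP thymocyte markers rose and 1 fell, and 10 of 14 DN3 markers fell and 1 rose. Of all genes 19.7% rose and 16.9% fell there. Of 7 tested myeloid markers 3 rose and 1 fell. Of 3 tested gamma-delta or innate T markers 2 rose and 0 fell, and of 9 tested B-lineage markers 0 rose and 2 fell. Of 4 tested erythroid markers 1 rose and 0 fell, and the 1 tested thymic epithelium marker fell. In Lmo2Tg;p21-/- against Lmo2Tg cells 0 of 6 DP markers were called. There 1 of 14 DN3 markers rose and 1 fell, and 1 of 7 myeloid markers rose, where 3.35% of all genes rose and 3.59% fell. The DP markers summed to 54.7 to 78.3 CPM without and 151 to 219 CPM with the transgene. The part of other cells in the results was not tested either.

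**Figure D4:**
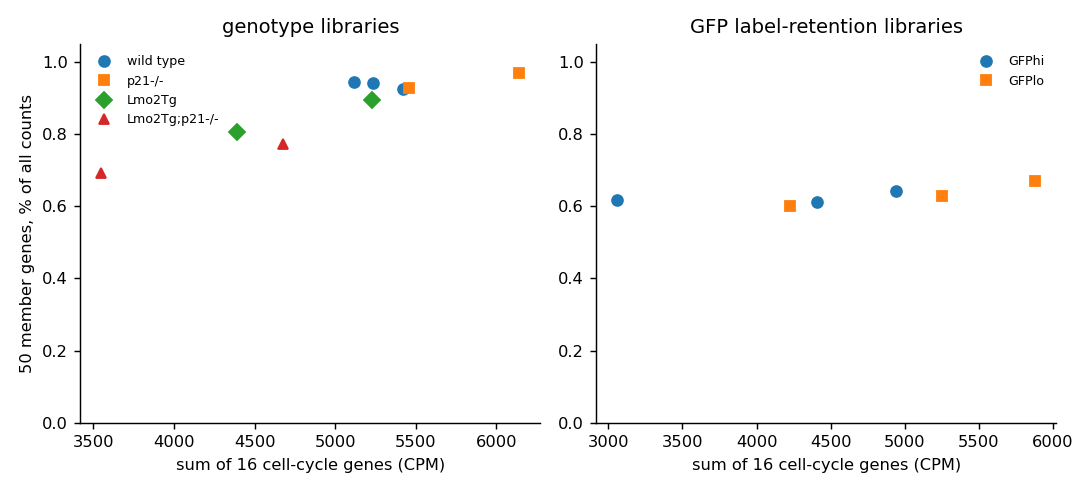
Percentage of all counts on the 50 genes (y axis, from 0) against the summed CPM of 16 cell-cycle genes (x axis), 1 point per library, for the genotype (left) and GFP (right) experiments. The Lmo2Tg;p21-/- libraries hold the lowest shares (0.693% and 0.774%), and the 6 GFP libraries lie between 0.600% and 0.672%.

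Myc, the activator named above, was also measured in these libraries. It was at 294 to 426 CPM in wild-type, 358 and 249 CPM in p21-/-, 203 and 169 CPM in Lmo2Tg, and 208 and 215 CPM in Lmo2Tg;p21-/- libraries. It fell in Lmo2Tg against wild-type cells (log2 -0.88 ± 0.18, adjusted p = 0.00342, edgeR), and between Lmo2Tg;p21-/- and Lmo2Tg cells it differed by 0.19 ± 0.19. In Lmo2Tg;p21-/- against p21-/- cells its estimate was below 0 but did not pass (log2 -0.52 ± 0.19, adjusted p = 0.0644, edgeR). The part of Myc in the results was not tested.

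The wider pathway was examined with 108 other genes of RNA polymerase I transcription, subunit assembly, snoRNP assembly and the RNA exosome, listed by function. Large subunit assembly was the largest list and held 43 of the 108 genes. Genes of these lists do not match the naming rule, so the role groups above leave them out. None was called in p21-/- against wild-type cells. In Lmo2Tg;p21-/- against Lmo2Tg cells 11 fell and 0 rose (3.59% and 3.35% of all genes), with a median of -0.16, and 6 of the 11 belong to large subunit assembly, led by Rsl1d1 (log2 -0.58); the largest fall was that of Taf1d, a subunit of the RNA polymerase I selectivity factor (log2 -0.75), followed by Nufip1 (log2 -0.58) and Pno1 (log2 -0.57). In Lmo2Tg against wild-type cells 15 of the 108 fell and 7 rose, which are smaller shares than the 16.9% and 19.7% of all genes. All 4 snoRNP assembly genes called in that comparison (Shq1, Naf1, Ruvbl1 and Ruvbl2, of 8 listed) fell, as did all 6 exosome genes called of 13, while Taf1d rose by 0.76. In Lmo2Tg;p21-/- against p21-/- cells 26 fell and 1 rose (14.4% and 16.3% of all genes), with 11 of the 26 in large subunit assembly. Taf1d (-0.93) and Rsl1d1 (-0.59) were the 2 called for the interaction.

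GFP label retention was compared to see how cells that divide rarely differ from those that divide often. Few of the 49 genes differed: 4 were lower and 0 higher in GFPhi than in GFPlo cells (9.49% and 5.37% of all 11581 genes tested), and none passed the rule of over 2-fold at an FDR of 0.01 (2.25% of all genes). The median of the 49 genes was 0.026, beside 0.015 over all genes, and 23 of 49 estimates were below 0 where 47.9% of all genes were. The 4 lower genes were Nol12, Wdr12, Utp23 and Nol3.

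Nol12, a nucleolar RNA-binding factor of large subunit rRNA maturation, was at 38.5, 36.3 and 34.8 CPM in GFPhi and 49.97, 52.6 and 54.3 CPM in GFPlo libraries, without overlap (log2 -0.52 ± 0.070, adjusted p = 0.00920, edgeR). In this comparison 21.7% of all genes were lower without overlap. Wdr12 was at 77.5, 81.2 and 71.3 CPM against 93.6, 98.9 and 107 CPM (log2 -0.38 ± 0.078, adjusted p = 0.0282, edgeR). Utp23 was at 29.4, 30.1 and 25.7 CPM against 35.8, 36.2 and 39.2 CPM (log2 -0.38 ± 0.090, adjusted p = 0.0410, edgeR). Nol3 was at 2.31, 1.84 and 1.15 CPM against 4.40, 3.63 and 4.96 CPM (log2 -1.29 ± 0.30, adjusted p = 0.0380, edgeR). The calls of Wdr12, Utp23 and Nol3 were each lost on leaving out any 1 library other than GFPhi replicate 3, and that of Nol12 without GFPlo replicate 2. All of these calls were also lost with the replicate number as a block, though the numbers were not stated to mark a shared cohort.

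The differences also varied with chromosome. Genes of chromosome 15 had a median log2 difference of -0.43 (464 tested) and those of chromosome 2 of -0.18 (923 tested), against 0.046 for the other chromosomes. Of all genes tested, 90.3% on chromosome 15, 77.6% on chromosome 2 and 43.2% on the others were below 0. All 4 members on chromosome 15 were below 0, namely Nol12, Utp23, Bop1 (154, 154 and 134 CPM in GFPhi, 173, 179 and 168 CPM in GFPlo; log2 -0.23 ± 0.074, adjusted p = 0.0857, edgeR) and Rrp7a (log2 -0.22 ± 0.069, adjusted p = 0.0814, edgeR). All 4 on chromosome 2 were below 0 too: Nop10 (-0.21), Polr1b (-0.16), Nop56 (-0.08) and Nol4l (-0.46). The other 41 members had a median of 0.075, and 15 of them were below 0. In Lmo2Tg against wild-type cells the chromosome 15 median was 0.13 and that of the 4 members there -0.073.

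The abundant genes Ncl, Nop58 and Dkc1 overlapped between GFPhi and GFPlo. Ncl was at 1406, 1557 and 1437 CPM against 1316, 1454 and 1673 CPM (log2 -0.01 ± 0.10), Nop58 at 290, 312 and 273 against 264, 284 and 332 CPM (log2 -0.01 ± 0.10), and Dkc1 at 236, 245 and 250 against 225, 230 and 256 CPM (log2 0.04 ± 0.069). The log2 differences of the other named genes were 0.13 ± 0.13 for Fbl, 0.10 ± 0.096 for Npm1, 0.11 ± 0.052 for Nhp2, -0.08 ± 0.091 for Gar1, -0.01 ± 0.049 for Pes1, 0.05 ± 0.10 for Imp3, 0.23 ± 0.11 for Imp4 and -0.08 ± 0.051 for Polr1a, and none passed. Utp14b was at 23.1, 27.4 and 21.8 CPM against 26.4, 29.6 and 36.7 CPM, with Acsl3 at 35.0 to 39.2 CPM against 40.8 to 52.9 CPM. The summed cell-cycle genes were at 4407, 4942 and 3061 CPM in GFPhi and 4229, 5253 and 5881 CPM in GFPlo libraries, the lowest being GFPhi replicate 3, and B-lineage markers summed to 56.0, 161 and 69.5 CPM in GFPhi and 32.8 to 37.6 CPM in GFPlo libraries. Of 11 tested B-lineage markers 6 were higher in GFPhi and 0 lower, where 5.37% of all genes were higher. Among the tested DN3, DP and thymic epithelium markers 1 each was higher. Of the 108 pathway genes 5 were lower and 3 higher in GFPhi, smaller shares than the 9.49% and 5.37% of all genes, among them Znrd1 (-0.77), Dcaf13 (-0.47) and Exosc4 (-0.45), the last pair both on chromosome 15.

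Leaving out GFPhi replicate 3 raised the number of calls to 17, 9 lower and 8 higher, and raised that over all genes alike (21.7% lower and 19.5% higher). The members' median was then 0.018, beside 0.0080 over all genes, and the medians of chromosomes 15 and 2 were -0.43 and -0.19. RNA polymerase I then split, with Polr1d (90.6 and 87.6 CPM in GFPhi against 65.7 to 73.2 CPM in GFPlo; log2 0.35 ± 0.063, adjusted p = 0.00561, edgeR) and Polr1e (log2 0.36 ± 0.068) higher, and Polr1b (log2 -0.17 ± 0.054) and Polr1c (log2 -0.20 ± 0.057) lower. Of 20 small subunit genes 5 were higher and 1, Utp23, lower, and of 11 large subunit genes 4 were lower and 0 higher. Of all lower genes, Nol12, Bop1 and Utp23 lie on chromosome 15, Polr1b and Nol4l on chromosome 2, and the rest on other chromosomes. Nol4l changed most, being at 5.81 and 3.55 CPM in GFPhi replicates 1 and 2, 16.9 CPM in replicate 3 and 11.3 to 12.5 CPM in GFPlo libraries. Without replicate 3 it was lower by 1.36 ± 0.21 on the log2 scale (adjusted p = 0.00283, edgeR), and with it the difference was -0.46 ± 0.55.

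**Figure D5:**
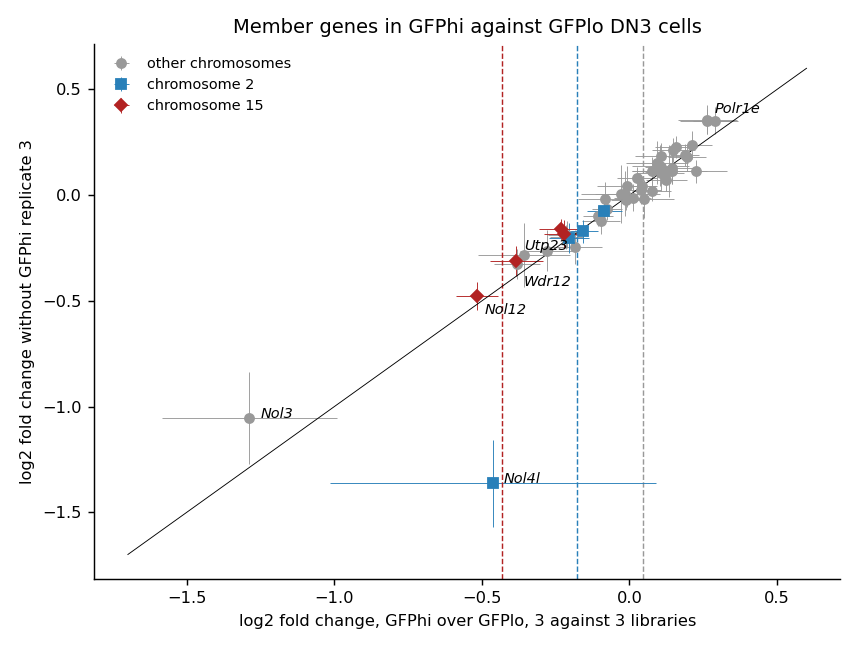
Log2 fold change of GFPhi over GFPlo for the 49 tested genes with all 6 libraries (x axis) and without GFPhi replicate 3 (y axis); bars are SEs, colours mark chromosomes 2, 15 and the others, dashed lines the medians of all genes on them (-0.18, -0.43 and 0.046) and the solid line equality. The 8 members on chromosomes 2 and 15 all lie below 0 on both axes, and Nol4l lies farthest from the line. With all 6 libraries, 77.6% of all genes on chromosome 2 and 90.3% of those on chromosome 15 were below 0.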

How the data were processed

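Gene-level counts were deposited for DN3 thymocyte poly-A RNA-seq in a GFP and a genotype table; the authors' processing notes name STAR 2.4.2a, featureCounts, limma and the mm10 build, and the counts are raw, with multimapping settings not given in the sources used here and strand settings hinted at by the titles of the tables alone (none for the genotype table, reverse for the GFP table). Library groups came from the labels; 1 column, whose name reads as a further Lmo2Tg;p21-/- library, was not used because no sample label matched it, and p21-/- replicate 3 was not analysed here. The Lmo2Tg columns were matched to their group only. Genes were filtered with filterByExpr (minimum count 10, minimum total 15), scaled by TMM and tested with edgeR 4.0.16 (quasi-likelihood; R 4.3.3) on each whole table, with Benjamini-Hochberg adjustment over all genes and a threshold of 0.05; the 4 genotypes shared 1 fit. The study's methods describe RNA pooled from several mice. Except for the GFP cohorts, nothing states that replicates came from separate pools, so p-values measure the spread between these libraries, which may be technical.

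Alternatives were DESeq2 1.42.0, limma-voom (limma 3.58.1), RLE scaling, other filters, a replicate block, a stricter threshold and leaving out each library. Positions, overlaps and shared 50-base windows came from GENCODE M21 (GRCm38), in which 21721 of 22114 identifiers (98.2%) were found, and promoters from RefSeq (GRCm38.p6). The fit was tested on simulated counts. Figures were drawn with matplotlib 3.10.9.

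The members and lists were chosen with earlier results of these data known. The genes named were the 11 members given by full symbol in the rule with Polr1a and Polr1b, the 5 called members with the largest changes per direction and comparison at a mean of at least 1 CPM, the name matches, members on chromosomes 2 and 15 in the GFP comparison, Utp14a and Utp14b, and up to 4 examples per pathway comparison; other called members were named after their values were seen.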

Additional observations from a re-analysis of the deposited data

Results flagged for a closer look

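Utp14b was the 1 member whose response to p21 loss differed between DN3 cells with and without the Lmo2 transgene by a test of the difference itself, with an interaction of -1.86 ± 0.32 on the log2 scale (SE; edgeR, adjusted p = 0.0319). It was at 60.4 and 69.3 CPM in Lmo2Tg against 21.1 and 29.6 CPM in Lmo2Tg;p21-/- libraries, and at 24.7 to 29.5 CPM in wild-type against 27.7 and 50.3 CPM in p21-/- libraries. The interaction no longer passed without p21-/- replicate 2, the library at 50.3 CPM, nor without any other library listed with the interaction above. Over the 9 fits that left out 1 library it ran from -2.23 to -1.37 on the log2 scale.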

How the results depend on the processing

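Direction was followed for 37 called and 85 not called member results, of which 0 changed direction past the threshold. At an adjusted p under 0.01 the number of called members was 1 for GFPhi against GFPlo (4 at 0.05), 0 for the interaction (1), 5 for Lmo2Tg against wild type (14), 0 for Lmo2Tg;p21-/- against Lmo2Tg (4) and 8 for Lmo2Tg;p21-/- against p21-/- (14). DESeq2 called 13 in the GFP comparison, 3 for the interaction and 7 for Lmo2Tg;p21-/- against Lmo2Tg, the fit with no filter on low counts called 3 and 7 in the last pair, and the fit of only the 2 groups compared called 1 in the last. Leaving out 1 library gave from 0 (without GFPlo replicate 2) to 17 (without GFPhi replicate 3) in the GFP comparison, 0 to 1 for the interaction, 4 (without column L2) to 13 for Lmo2Tg against wild type, 0 (without column L3 or Lmo2Tg;p21-/- replicate 1) to 6 for Lmo2Tg;p21-/- against Lmo2Tg, and 5 (without Lmo2Tg;p21-/- replicate 1) to 18 (without WT replicate 3) for Lmo2Tg;p21-/- against p21-/-. The members' median then ran from -0.012 to 0.084 in the GFP comparison, from -0.15 to -0.051 for the interaction and from -0.28 to -0.15 for Lmo2Tg;p21-/- against p21-/-. The cause of these shifts was not tested.

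The replicate numbers were not stated to mark a shared cohort, and same-numbered libraries deviated together with correlations of 0.07, -0.08 and 0.10 in the GFP experiment and -0.24 and 0.30 between wild type and p21-/-. With the replicate number as a block, 0 members were called in the GFP comparison and 0 in p21-/- against wild type. Of 544 alternative values of the 37 called results named, 418 kept their call and 126 lost it; of 1234 values of 85 results not called, 30 became called.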
